A study of Mus musculus and Homo sapiens with 18 samples.

Results

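The genes described here are 8 regulators of sterol sensing and lipoprotein uptake: *Srebf1*, *Srebf2*, *Scap*, *Mbtps1*, *Insig1*, *Insig2*, *Stard4* and *Mylip*. They were chosen by symbol, with the upper-case symbols in human cells, and all 8 were found among the 46882 genes of the mouse lens table, the 54838 genes of the NLPC table and the 60880 genes of the HLE-B3 table. All 8 also had enough counts to be tested in each system, so no member was lost to a filter. Sterol regulatory element-binding proteins (SREBPs, encoded by *Srebf1* and *Srebf2*) are made as precursors in the membrane of the endoplasmic reticulum, where they are bound to the sterol sensor SCAP. When sterols run low, SCAP carries the precursor to the Golgi, where the site-1 protease (*Mbtps1*) makes the first cut that leads to release of the active transcription factor. When sterols are plentiful, the INSIG proteins hold SCAP back, and *Insig1* is itself a classical SREBP target gene.

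The 18 RNA-seq libraries come from 3 systems and 6 groups of 3. Lenses were dissected at P17 to P19 from tamoxifen-injected Ctrl mice (*Nestin-CreERT2; QkL/+*, which carry Cre and 1 floxed allele) and *Qk*-iCKO mice (*Nestin-CreERT2; QkL/L*), with tamoxifen given at P7 and P8, so that *Qk* is removed only where the Nestin promoter drives Cre. NLPCs are lens progenitor-like cells made in culture from neural stem cells of P1 mouse brain and are labelled wild type (WT) or *Qk-/-*, the deletion having been induced with 4-hydroxytamoxifen. HLE-B3 is a human lens epithelial cell line, used as wild type and after CRISPR-Cas9 targeting of *QKI* (QKI KO); the KO cells were enriched by puromycin selection after lentiviral infection, and no cloning step is named in the sources used here. *Qk* encodes the RNA-binding protein Qki.

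Between 10319320 and 16425331 reads per lens, 28154202 and 68243360 per NLPC library and 69190864 and 81384471 per HLE-B3 library were counted on genes. *QKI* counts were lower in QKI KO than in WT HLE-B3 cells (log2 fold change −1.34 ± 0.054, SE), *Qk* was at 86.9 to 106 CPM (TMM-normalized counts scaled to a common library size) in *Qk*-iCKO and 116 to 127 in Ctrl lenses (edgeR, adjusted p = 0.200), and *Qk* was higher, not lower, in the NLPC libraries labelled *Qk-/-* (log2 fold change 0.41, adjusted p = 0.0270). Because the mouse deletion takes out exon 2 and a gene count sums the whole transcript, the mouse counts do not check the deletion. A pair of libraries stood apart from the rest of their system in mean correlation with the other libraries, *Qk*-iCKO lens 1 (0.877, against 0.904 to 0.920) and NLPC *Qk-/-* library 2 (0.892, against 0.948 to 0.957). Summed lens fibre markers were 237629 to 255447 CPM in Ctrl and 127761 to 215789 in *Qk*-iCKO lenses, but at most 4.2 in any NLPC library and 5.63 in any HLE-B3 library, so the defining fibre genes of the lens were at or near 0 in both cultures. In lenses, epithelium markers summed to 22158 to 31658 CPM in Ctrl and 14310 to 19346 in *Qk*-iCKO. Most of this was *Cryab* (means 26206 and 17019), and 0 of the 6 markers had an edgeR adjusted p under 0.05. Lens epithelium markers summed to 342 to 364 in WT NLPCs and 222 to 258 in those labelled *Qk-/-*. In HLE-B3 libraries they summed to 619 to 727 in WT and 1002 to 1155 in KO. These sums rest on few genes and do not show lens epithelial identity. In WT NLPCs *Foxe3* had 0 CPM and *Cdh1* a mean of 0.063, beside *Sox2* (134), *Pax6* (83.0), *Pdgfra* (72.0) and *Cryab* (64.8). In HLE-B3 cells mean *CRYAB* was 533 CPM in WT and 962 in KO, whereas *PAX6* was 147 and 133. *FOXE3*, *CDH1*, *PDGFRA* and *SOX2* had means of at most 1.28 there. Neural and glial markers summed to 5653 to 6089 CPM in WT NLPCs and 3501 to 4182 in those labelled *Qk-/-*. The 8 markers did not move together. *Slc1a3* (log2 fold change −1.66) and *Gfap* (−1.38) were lower and *Map2* (0.34) higher at an edgeR adjusted p under 0.05, and 5 did not pass. Of all genes tested there, 4.74% were higher and 5.96% lower. The part of these markers in the NLPC results was not tested. Y-linked genes had 1051 and 930 reads in *Qk*-iCKO lenses 2 and 3 and at most 3 in any other lens, so sex was not balanced between the lens groups.

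To show the start regions of the genes whose counts changed most in these comparisons, sequence from the 250 bases before the start of *Insig1* and *Insig2*, and of *Srebf2*, which changed in HLE-B3 cells, is given 5′ to 3′ for mouse (RefSeq, GRCm38.p6) and human (reference genome GRCh37, before the GENCODE gene start). Mouse windows are printed only as far as the GENCODE gene start, which leaves 201 bases of *Insig1* and 162 of *Srebf2*. For mouse *Insig2*, the start farthest upstream of 3 is shown, and gene counts do not tell these starts apart. Capitals mark every match, on either strand, to CACGTG (an E-box), CCAAT (the box bound by NF-Y), GGGCGG (a GC box) or TCACNCCA (a form of the sterol regulatory element). TCACNCCA was chosen after the mouse windows had been seen, since the longer form TCACNCCAC, which contains it and is capitalised too, matched no mouse member; of the human members it matched *SREBF2*. Matches of GGGCGG can overlap each other.
Mouse Insig1 (chr5:28071162-28071362, plus strand): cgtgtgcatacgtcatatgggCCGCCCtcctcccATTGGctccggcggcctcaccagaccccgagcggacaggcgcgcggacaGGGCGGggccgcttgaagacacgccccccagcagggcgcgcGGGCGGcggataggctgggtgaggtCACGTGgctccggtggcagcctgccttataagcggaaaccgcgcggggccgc
Human INSIG1 (chr7:155089236-155089485, plus strand): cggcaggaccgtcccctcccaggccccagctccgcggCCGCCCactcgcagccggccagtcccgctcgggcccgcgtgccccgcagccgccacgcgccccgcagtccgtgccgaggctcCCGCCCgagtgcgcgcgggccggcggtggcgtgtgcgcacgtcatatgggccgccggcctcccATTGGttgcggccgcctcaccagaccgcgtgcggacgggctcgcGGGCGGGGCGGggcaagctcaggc
Mouse Insig2 (chr1:121332590-121332839, minus strand): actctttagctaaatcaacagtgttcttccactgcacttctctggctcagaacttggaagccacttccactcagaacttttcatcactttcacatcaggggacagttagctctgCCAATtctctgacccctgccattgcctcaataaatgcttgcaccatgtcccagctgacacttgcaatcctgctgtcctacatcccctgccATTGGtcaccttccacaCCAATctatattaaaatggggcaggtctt
Human INSIG2 (chr2:118845778-118846027, plus strand): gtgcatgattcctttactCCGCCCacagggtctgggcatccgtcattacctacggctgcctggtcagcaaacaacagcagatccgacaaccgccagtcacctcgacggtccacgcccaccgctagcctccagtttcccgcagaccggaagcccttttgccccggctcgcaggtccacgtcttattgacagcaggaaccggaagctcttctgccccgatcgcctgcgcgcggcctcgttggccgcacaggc
Mouse Srebf2 (chr15:82147019-82147180, plus strand): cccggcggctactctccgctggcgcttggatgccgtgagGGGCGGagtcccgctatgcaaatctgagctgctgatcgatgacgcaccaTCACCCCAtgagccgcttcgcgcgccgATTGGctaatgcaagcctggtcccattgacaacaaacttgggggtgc
Human SREBF2 (chr22:42228859-42229108, plus strand): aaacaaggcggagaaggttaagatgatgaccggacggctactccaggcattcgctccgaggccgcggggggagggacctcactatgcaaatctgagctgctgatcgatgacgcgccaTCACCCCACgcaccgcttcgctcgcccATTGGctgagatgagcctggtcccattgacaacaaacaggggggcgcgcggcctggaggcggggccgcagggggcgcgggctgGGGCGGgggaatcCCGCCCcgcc

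Mouse *Insig1* held CACGTG 101 bases before its RefSeq start, a sequence found in 6.02% of 32851 mouse windows, whereas the human *INSIG1* window held none (7.17% of 20152 human windows did). CCAAT was present on the minus strand in both *Insig1* and *INSIG1* (33.8% of mouse and 33.1% of human windows), and the mouse *Insig2* window held it 3 times. In *Srebf2* and *SREBF2* alike, TCACNCCA stood on the plus strand, followed by CCAAT on the minus strand. TCACNCCA occurred in 3.67% of mouse and 3.57% of human windows, and TCACNCCAC in 1.05 and 1.04%. GGGCGG, in 32.7% of mouse and 48.7% of human windows, was found in 5 of the 6 windows shown, the exception being mouse *Insig2*. Windows at the other starts of mouse *Insig2* held GGGCGG and no CCAAT, so this contrast depends on the start shown. RefSeq windows matched 7 of the 8 mouse members and genome windows all 8 human members. These matches describe the letters only, and binding was not measured in the counts used here.

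*Insig1* was the only one of the 8 genes whose counts passed the test in all 3 systems, and its direction differed between them: it was 2.27-fold lower in *Qk*-iCKO lenses and 2.22-fold lower in QKI KO HLE-B3 cells, and 1.35-fold higher in NLPCs labelled *Qk-/-*. *Insig2*, its paralog, rose 1.83-fold in QKI KO HLE-B3 cells and 1.68-fold in NLPCs labelled *Qk-/-*. *SREBF2* fell 1.33-fold and *MBTPS1* 1.11-fold in QKI KO HLE-B3 cells. None of *Srebf1*, *Scap*, *Stard4* and *Mylip* passed in any system. Genes were called at an adjusted p under 0.05 (quasi-likelihood test of edgeR, with TMM scaling and Benjamini-Hochberg adjustment over each table's tested genes), and levels are CPM unless given per kilobase.

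**Figure D1:**
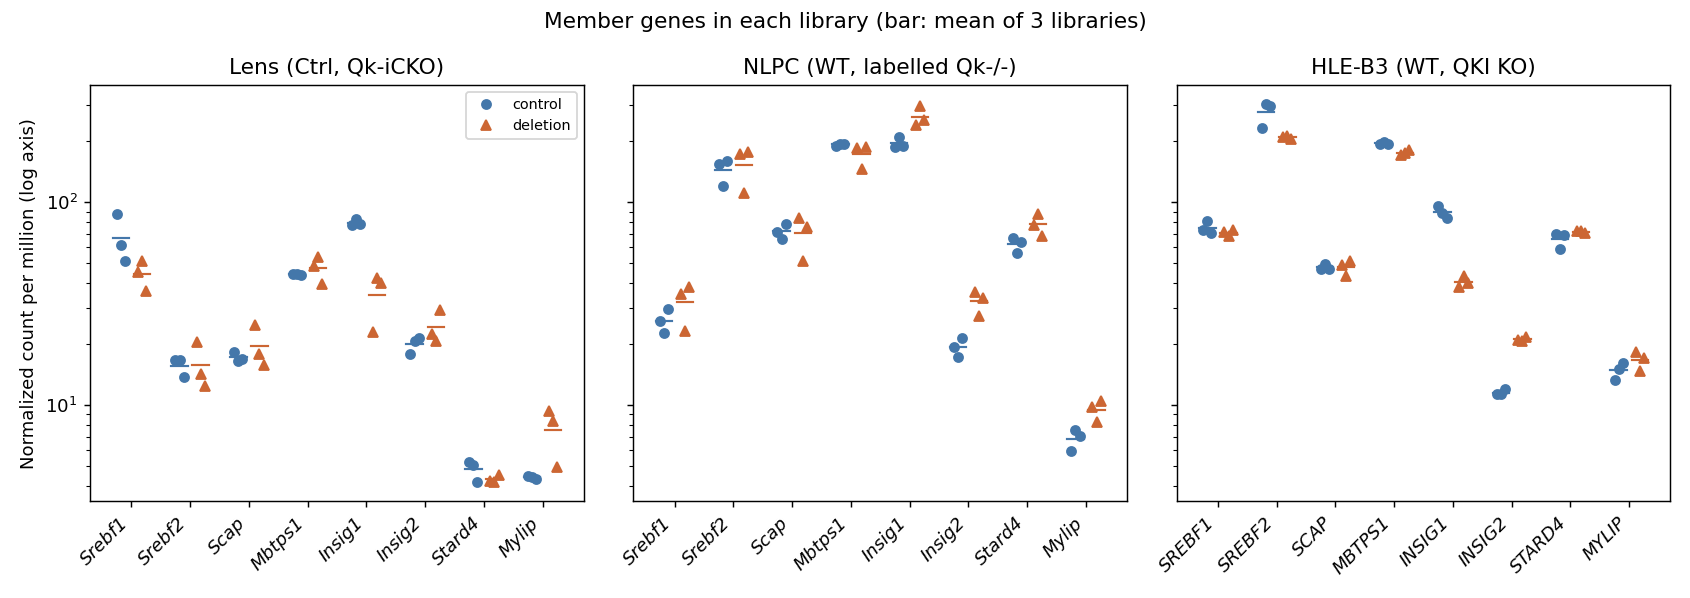
CPM (normalized counts, log axis) of the 8 genes in each of the 18 libraries, with circles for control and triangles for deletion libraries and bars at the mean of 3. The *Insig1* triangles lie below the circles in the lens and in HLE-B3 cells and above them in NLPCs.

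In the lens, 1 of the 8 members passed and was lower, and 0 were higher, where 3.88% of the 12201 genes tested were lower and 8.38% higher in *Qk*-iCKO lenses. Among NLPCs, 2 of 8 were higher and 0 lower, against 4.74% higher and 5.96% lower of 20371 genes. In HLE-B3 cells 1 was higher and 3 were lower, against 17.0% higher and 16.3% lower of 19049 genes. The counts of all libraries of a group lay on one side of the other group for 3 members in the lens (35.3% of all genes), 5 in NLPCs (35.2%) and 5 in HLE-B3 cells (44.6%), so these shares of the members were close to, or above, those of all genes. The median log2 fold change of the members was 0.055 in the lens (0.0064 over all genes), 0.31 in NLPCs (0.040) and −0.037 in HLE-B3 cells (−0.020). Deletion effects were also compared between lens and NLPC in a joint fit, where 8.53% of 16675 genes differed in either direction and 1 of the 8 members, *Insig1*, did.

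**Figure D2:**
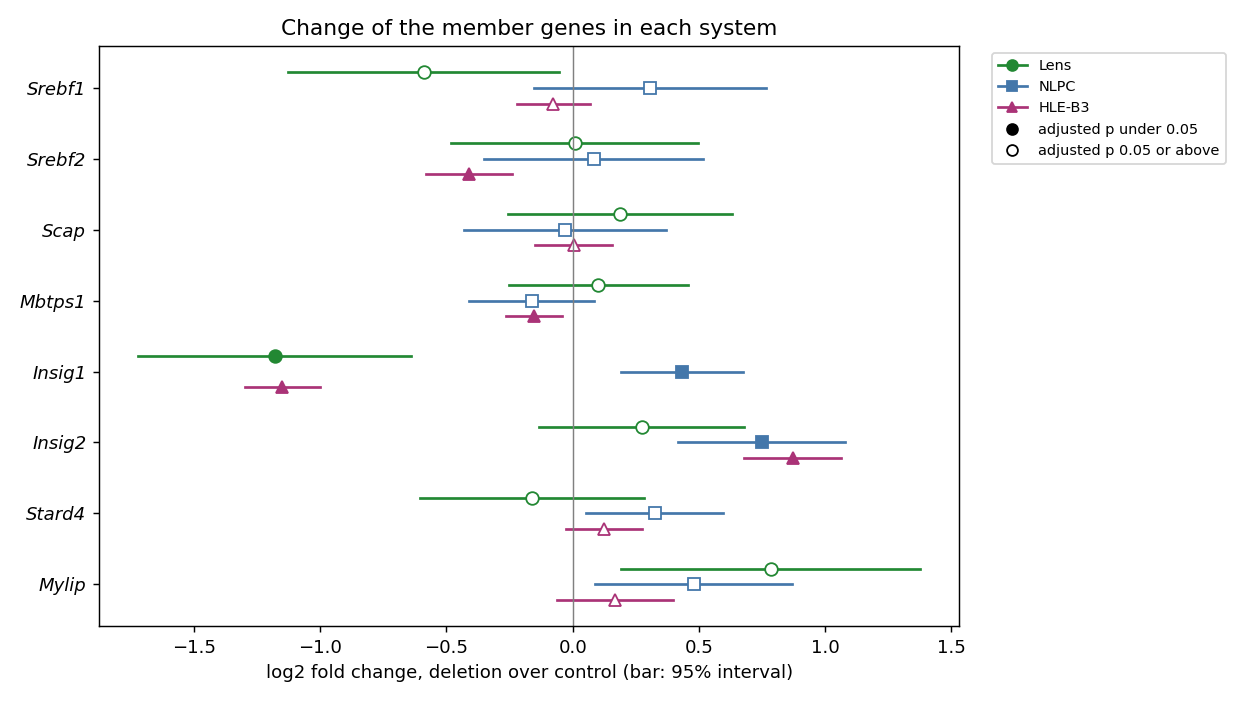
Log2 fold change of deletion over control for each member in lens (green circles), NLPC (blue squares) and HLE-B3 (purple triangles), with 95% intervals from edgeR and filled symbols for an adjusted p under 0.05. *Insig1* lies at −1.18 in the lens, 0.43 in NLPCs and −1.15 in HLE-B3 cells, and the other filled symbols are *Insig2* in NLPCs and HLE-B3 cells and *Srebf2* and *Mbtps1* in HLE-B3 cells.

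*Insig1* (GRCm38 chr5:28071363-28078662, human *INSIG1* GRCh37 chr7:155089486-155101945) encodes the retention protein that SREBPs themselves induce. In Ctrl lenses 1 to 3 it had 77.2, 82.3 and 77.8 CPM, and in *Qk*-iCKO lenses 1 to 3 it had 23.0, 42.1 and 39.8. The highest *Qk*-iCKO lens was thus well below the lowest Ctrl lens, and the controls varied little (log2 fold change −1.18 ± 0.23, SE, n = 3 against 3, edgeR adjusted p = 0.0178). *Qk*-iCKO lens 1, the lens with the lowest value, was also the lens that stood apart; without it the log2 fold change was −0.95 (edgeR adjusted p = 0.00415). Summed lens fibre markers had the same order in CPM, with 127761, 215789 and 195154 in *Qk*-iCKO lenses 1, 2 and 3. Both values are divided by the same TMM factors (1.48, 0.918 and 0.962 in these lenses), so this shared order depends on the scaling. The part of the fibre markers in *Insig1* was not tested. In whole lenses fewer cells of a type cannot be told apart from less RNA per cell. Leaving out any 1 Ctrl lens kept the size of the change (−1.21 to −1.16) but moved the edgeR adjusted p to 0.0645 to 0.0692, in fits in which the number of all genes called fell from 1496 to 581, 690 and 661 without Ctrl 1, 2 and 3.

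In HLE-B3 cells *INSIG1* had 96.1, 89.0 and 84.1 CPM in WT libraries and 38.3, 43.1 and 39.9 in QKI KO libraries. Groups were far apart relative to their spread (log2 fold change −1.15 ± 0.071, SE, edgeR adjusted p = 2.84e-09), and the call was kept when any library was left out. NLPCs showed the opposite order, with 188, 210 and 189 CPM in WT libraries and 239, 299 and 254 in libraries labelled *Qk-/-*. There too the groups did not overlap (log2 fold change 0.43 ± 0.11, SE, edgeR adjusted p = 0.0371). Without NLPC *Qk-/-* library 2, which held the highest value, the change was 0.34 (edgeR adjusted p = 0.0122), and without any 1 of the other 5 libraries the edgeR adjusted p rose to between 0.0660 and 0.185. The difference between the NLPC and the lens effect was 1.72 ± 0.28 (SE) on the log2 scale (95% interval 1.11 to 2.33, edgeR interaction adjusted p = 0.00288) and was called in all 12 fits that left out 1 library (1.48 to 1.84).

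*Insig2* (GRCm38 chr1:121304353-121332589, human *INSIG2* GRCh37 chr2:118846028-118868573) also encodes a SCAP retention protein but is not a typical SREBP target. WT HLE-B3 libraries had 11.30, 11.30 and 11.98 CPM and QKI KO libraries 20.8, 20.7 and 21.7. The groups were separated by far more than their spread, in the direction opposite to *INSIG1* (log2 fold change 0.87 ± 0.091, SE, edgeR adjusted p = 1.37e-06). NLPC values were 19.3, 17.3 and 21.5 in WT libraries and 36.3, 27.6 and 33.7 in libraries labelled *Qk-/-*, also without overlap (0.75 ± 0.14, SE, edgeR adjusted p = 0.0155). The NLPC call held without *Qk-/-* library 2 (0.86, edgeR adjusted p = 0.000793) and was lost without any 1 of the others, with adjusted p between 0.0598 and 0.100. In lenses the values were 17.9, 20.6 and 21.4 (Ctrl) and 22.4, 20.7 and 29.4 (*Qk*-iCKO). These overlapped, with a log2 fold change of 0.27 and a 95% interval of −0.13 to 0.68 (edgeR adjusted p = 0.347). The difference between the NLPC and the lens effect did not pass (0.57, 95% interval 0.093 to 1.05, edgeR adjusted p = 0.135).

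Because a ratio of 2 genes within a library does not depend on its scaling, *Insig1* was also set against *Insig2* per kilobase of exon. *INSIG1* stood 8.41-fold above *INSIG2* in WT HLE-B3 cells and 2.07-fold after *QKI* KO, and *Insig1* 4.45-fold above *Insig2* in Ctrl and 1.59-fold in *Qk*-iCKO lenses, with no overlap between groups in either system (exact permutation test, two-sided, p = 0.10, the smallest that 3 against 3 allows). In NLPCs the ratio was 11.4 in WT libraries and 9.13 in libraries labelled *Qk-/-*, and the groups overlapped (exact permutation test, two-sided, p = 0.30). Within same-numbered NLPC libraries, which deviated together, the ratio was lower in 3 of 3 pairs, by 0.56, 0.17 and 0.22 on the log2 scale (exact sign-flip test, two-sided, p = 0.25, the smallest that 3 pairs allow). Same-numbered lenses deviated together as well. Their ratio was lower in 3 of 3 pairs too, with differences of −2.07, −0.97 and −1.42 (exact sign-flip test, two-sided, p = 0.25).

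**Figure D3:**
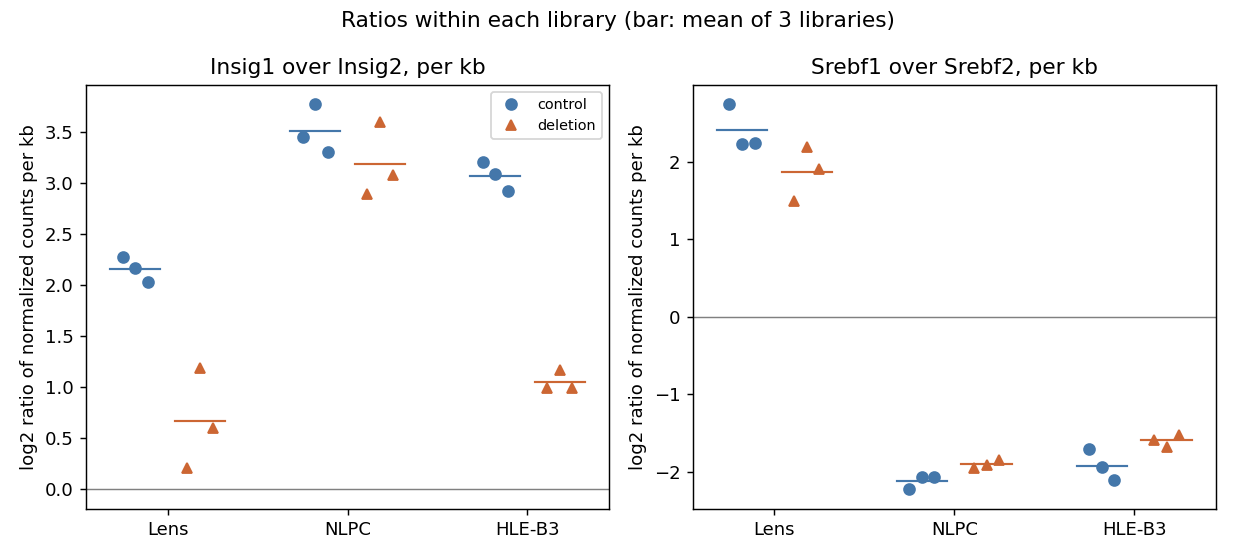
Log2 ratio of normalized counts per kilobase within each library, *Insig1* over *Insig2* (left) and *Srebf1* over *Srebf2* (right), with circles for control and triangles for deletion libraries and bars at the mean of 3. The *Insig1* to *Insig2* ratio is lower in all deletion libraries of the lens and HLE-B3, and overlaps in NLPCs; *Srebf1* exceeds *Srebf2* only in the lens.

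*Srebf2* (GRCm38 chr15:82147181-82205379, human *SREBF2* GRCh37 chr22:42229109-42303310) encodes SREBP-2, the form that mainly drives cholesterol genes. WT HLE-B3 libraries had 232, 305 and 297 CPM and QKI KO libraries 210, 212 and 206. The KO values were tightly grouped just below the lowest WT library (log2 fold change −0.41 ± 0.081, SE, edgeR adjusted p = 0.000776), and the call held when any library was left out (−0.51 to −0.33). In lenses, Ctrl values of 16.7, 16.7 and 13.7 overlapped *Qk*-iCKO values of 20.4, 14.2 and 12.4 (log2 fold change 0.0076, 95% interval −0.48 to 0.50, edgeR adjusted p = 0.987). NLPC values of 155, 120 and 160 (WT) and 173, 111 and 176 (labelled *Qk-/-*) overlapped as well (0.083, 95% interval −0.35 to 0.51, edgeR adjusted p = 0.814).

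*Srebf1* (GRCm38 chr11:60199089-60222581, human *SREBF1* GRCh37 chr17:17713713-17740316) encodes SREBP-1, whose isoforms mainly drive fatty acid genes. Ctrl lenses had 87.7, 61.7 and 51.3 CPM and *Qk*-iCKO lenses 45.3, 51.2 and 36.7. All *Qk*-iCKO values lay below the Ctrl values, by a narrow margin and with a wide control spread (log2 fold change −0.59 ± 0.23, SE, edgeR adjusted p = 0.142). In NLPCs, WT values of 25.9, 22.6 and 29.9 overlapped 35.2, 23.2 and 38.4 in libraries labelled *Qk-/-* (0.31, edgeR adjusted p = 0.368). Without *Qk-/-* library 2, the lowest of its group, *Srebf1* passed there (0.50, edgeR adjusted p = 0.0208). The NLPC effect exceeded the lens effect by 0.98 (edgeR interaction adjusted p = 0.0641), and by 0.95 in a fit blocked on replicate number (edgeR adjusted p = 0.0225), so this call depended on the fit. It also passed with DESeq2 (1.02, adjusted p = 0.0153), in edgeR with every gene of at least 1 count (0.94, adjusted p = 0.0385) and without NLPC *Qk-/-* library 2 (1.16, edgeR adjusted p = 0.0262). HLE-B3 values were 72.7, 81.3 and 70.3 in WT and 71.4, 67.9 and 73.3 in QKI KO libraries, which overlapped (−0.076, 95% interval −0.22 to 0.067).

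Per kilobase, *Srebf1* was 5.31-fold above *Srebf2* in Ctrl and 3.65-fold in *Qk*-iCKO lenses, while it stood at 0.230 and 0.268 of *Srebf2* in WT and *Qk-/-* labelled NLPCs and at 0.264 (WT) and 0.331 (KO) in HLE-B3 cells. In each system the 2 groups did not overlap in this ratio, and it was lower in *Qk*-iCKO lenses but higher in the deletion libraries of both cultures (exact permutation test, two-sided, p = 0.10 in each, the smallest possible). The lens margin was narrow on the log2 scale, with 2.24 in Ctrl lens 2 and 2.19 in *Qk*-iCKO lens 2. Exons of *Srebf1* share 109 of 5634 bases with *Rai1* on the other strand and those of *SREBF1* 556 of 8234 with *RAI1*, and *SREBF2* shares 731 of 8053 with *SREBF2-AS1*. The library kit keeps strand, but how strand was set in the counting is not given in the sources used here. Neither *RAI1* nor *SREBF2-AS1* passed the test (log2 fold changes of 0.11 and −0.59, edgeR adjusted p = 0.193 and 0.468), and *SREBF2-AS1* had 18 to 38 reads per library.

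*Scap* (GRCm38 chr9:110333288-110384950, human *SCAP* GRCh37 chr3:47455171-47518616), the escort of SREBP, passed in no system. Its CPM were 16.5 to 18.2 in Ctrl and 15.9 to 24.9 in *Qk*-iCKO lenses, 66.0 to 78.5 in WT and 51.6 to 84.1 in *Qk-/-* labelled NLPCs, and 47.0 to 49.5 in WT and 43.4 to 51.3 in QKI KO HLE-B3 cells. The groups overlapped in each system, and the 95% intervals of the log2 fold change ran from −0.26 to 0.63, −0.43 to 0.37 and −0.15 to 0.16, the HLE-B3 interval being the narrowest.

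*Mbtps1* (GRCm38 chr8:119508156-119558735, human *MBTPS1* GRCh37 chr16:84087366-84150547) encodes the site-1 protease. WT HLE-B3 libraries had 195, 197 and 194 CPM and QKI KO libraries 172, 174 and 181. The groups did not overlap and the change was small (log2 fold change −0.15 ± 0.053, SE, edgeR adjusted p = 0.0337). The call was lost when any 1 library was left out (edgeR adjusted p from 0.0784 to 0.160), and the 50 genes nearest to *MBTPS1* on chromosome 16 had a median log2 fold change of −0.12, which leaves −0.033 for *MBTPS1* beyond its neighbours. In NLPCs, 190, 194 and 195 in WT stood above 184, 146 and 187 in libraries labelled *Qk-/-*, without passing the test (−0.16, edgeR adjusted p = 0.375). Lens values of 44.2, 44.3 and 43.9 (Ctrl) fell inside the range of 48.7, 53.9 and 39.4 (*Qk*-iCKO).

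*Stard4* (human *STARD4* GRCh37 chr5:110831731-110848288) encodes a cytosolic sterol transfer protein and is a known SREBP-2 target. NLPC values were 66.5, 56.1 and 63.8 in WT libraries and 77.5, 87.6 and 68.5 in libraries labelled *Qk-/-*. The groups were separated, but the difference did not pass (log2 fold change 0.32 ± 0.12, SE, edgeR adjusted p = 0.126). In HLE-B3 cells, 69.9, 58.6 and 68.7 in WT and 72.5, 72.1 and 70.2 in QKI KO libraries were separated by less than the WT spread (0.12, edgeR adjusted p = 0.212), beside a median of −0.25 in the 50 genes nearest to *STARD4*. Lens levels were low, with 43 to 71 reads per library and 4.16 to 5.22 CPM, and the groups overlapped (−0.16, 95% interval −0.60 to 0.28).

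*Mylip* (GRCm38 chr13:45389742-45412022, human *MYLIP* GRCh37 chr6:16129317-16148479) encodes a ubiquitin ligase that marks lipoprotein receptors for degradation and is induced by the sterol-activated LXR receptors. Ctrl lenses had 4.47, 4.42 and 4.32 CPM and *Qk*-iCKO lenses 9.39, 8.32 and 4.95. The Ctrl lenses were nearly equal, *Qk*-iCKO lenses 1 and 2 were high and lens 3 stood just above the controls (log2 fold change 0.78 ± 0.25, SE, edgeR adjusted p = 0.0910). Without *Qk*-iCKO lens 3, *Mylip* passed (1.01, edgeR adjusted p = 0.0192). In the same lenses all 7 tested macrophage and leukocyte markers of 8 listed were higher in *Qk*-iCKO, their sum rising from 1.91 to 4.05 CPM in Ctrl to 93.8, 110 and 128 in *Qk*-iCKO lenses 1, 2 and 3, and 2 of 4 endothelial markers were higher. Of all genes tested in the lens, 8.38% were higher. *Ptprc* and *Tyrobp* had 2 and 4 reads in all Ctrl lenses together, against 135 and 294 in all *Qk*-iCKO lenses. Such markers were tested only because of the *Qk*-iCKO lenses, so their direction was largely set by the filter. In CPM, the macrophage sum was lowest in the *Qk*-iCKO lens with the highest *Mylip* and highest in the lens with the lowest. *Qk*-iCKO lenses 1, 2 and 3 had TMM factors of 1.48, 0.918 and 0.962. The order of the macrophage sums between these lenses depends on this scaling. Neural and glial markers followed the order of *Mylip* in *Qk*-iCKO lenses 1, 2 and 3, with sums of 75.4, 62.8 and 41.1 CPM (29.8 to 41.4 in Ctrl) and 1 of 5 tested markers higher, *Nes* (log2 fold change 2.19, edgeR adjusted p = 0.00871). Mean *Nes* was 6.03 CPM in Ctrl and 27.4 in *Qk*-iCKO lenses, and *Slc1a3* was 1.83 and 6.48. *Gfap* was 8.65 and 9.01, *Tubb3* 2.06 and 2.42, and *Map2* 18.5 and 13.7. The paper reports Nestin and GFAP staining in lens epithelial cells, so this sum does not show neural tissue. Retina and pigment epithelium markers also followed the order of *Mylip*, at 132, 33.0 and 13.8 CPM, within the range of 3.64 to 391 in Ctrl and with 0 of 5 tested passing. The part of these markers in the *Mylip* values was not tested.

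*Mylip* values in NLPCs were 5.92, 7.54 and 7.04 in WT libraries and 9.83, 8.23 and 10.5 in libraries labelled *Qk-/-*. These groups did not overlap but did not pass (0.48 ± 0.17, SE, edgeR adjusted p = 0.118), and they did without *Qk-/-* library 2 (0.58, edgeR adjusted p = 0.0265). *MYLIP* in HLE-B3 cells was 13.3, 15.2 and 16.2 in WT and 18.2, 14.8 and 17.1 in QKI KO libraries, which overlapped (0.17, edgeR adjusted p = 0.269). Its 50 nearest genes on chromosome 6 had a median of 0.31, larger than its own change.

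**Figure D4:**
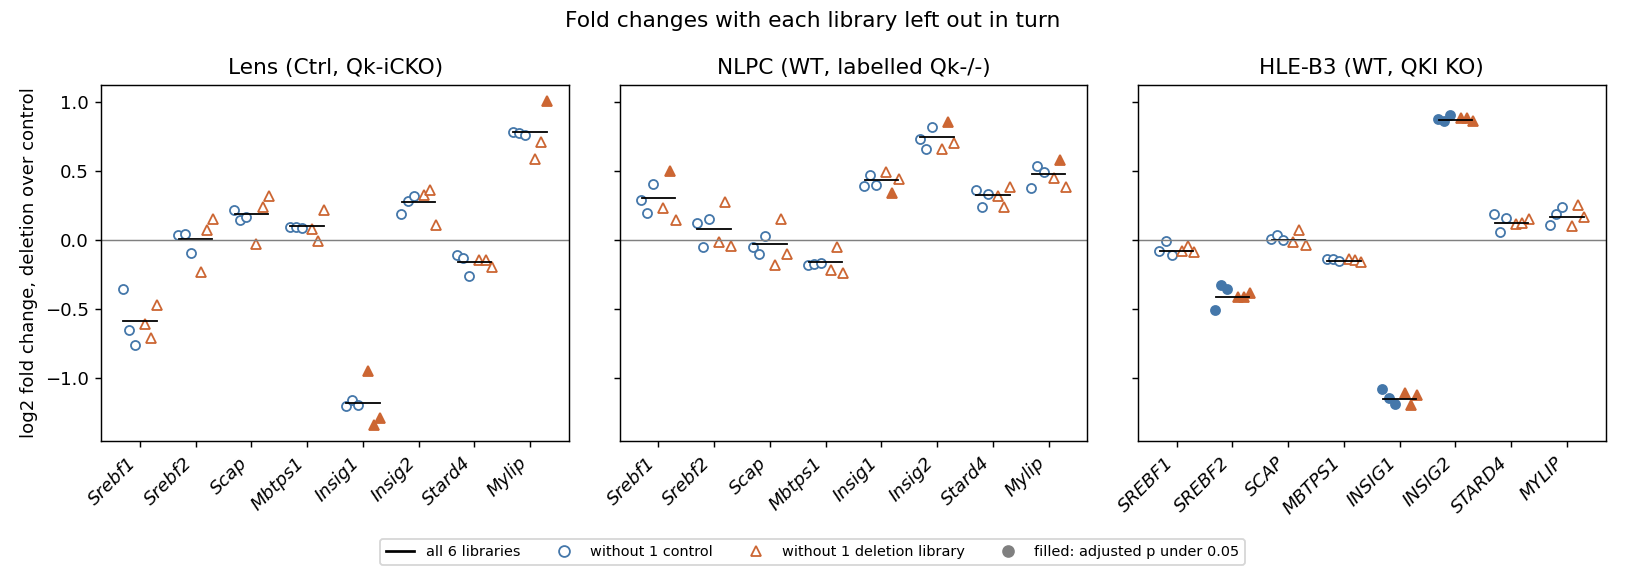
Log2 fold change of each member when 1 of the 6 libraries of a system was left out, with blue circles for a left-out control, orange triangles for a left-out deletion library, filled symbols for an adjusted p under 0.05 and black lines for the fit to all libraries. *INSIG1*, *INSIG2* and *SREBF2* stay filled throughout in HLE-B3 cells, whereas the symbols in NLPCs are filled only without *Qk-/-* library 2.

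Compared per kilobase of exon, *Insig1* was the most abundant member in Ctrl lenses (25.6 ± 0.89 CPM per kilobase, SD, n = 3) and in WT NLPCs (63.2 ± 4.0), and *SREBF2* in WT HLE-B3 cells (34.5 ± 5.0), where *INSIG1* followed at 24.6 ± 1.7. In Ctrl lenses *Srebf1* (11.9), *Insig2* (5.75), *Mbtps1* (4.18), *Scap* (2.31), *Srebf2* (2.18), *Mylip* (1.36) and *Stard4* (0.863) came next, and of these neighbours only *Scap* and *Srebf2* overlapped. In WT NLPCs *Srebf2* (20.2) and *Mbtps1* (18.3) overlapped, as did *Stard4* (11.1) with *Scap* (9.67) and *Insig2* (5.57) with *Srebf1* (4.64), and *Mylip* was lowest (2.11). In WT HLE-B3 cells the order went on with *MBTPS1* (19.01), *STARD4* (11.6), *SREBF1* (9.08), *SCAP* (7.61), *MYLIP* (4.85) and *INSIG2* (2.92), with no overlap between neighbours. After deletion *INSIG1* moved from the second to the fourth place in HLE-B3 cells (11.1), and in *Qk*-iCKO lenses *Insig1* (11.3) overlapped *Srebf1* (7.88).

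The likeness of other genes to *Insig1*, *Srebf2* and *Stard4* was described over the 12 mouse libraries, after the mean of each system was subtracted, among 11226 genes. *Insig1* was followed most closely by *Eif4a2*, a translation initiation factor (Pearson r = 0.987), *Rabep1* (0.977), *Agtpbp1* (0.969), *Pigg* (0.964) and *Luc7l* (0.962). *Eif4a2* was lower in *Qk*-iCKO lenses (log2 fold change −0.86, edgeR adjusted p = 0.0423) and higher in NLPCs labelled *Qk-/-* (0.45, edgeR adjusted p = 0.0199), as *Insig1* was. *Srebf2* was followed by *Abca2*, a lipid transporter (0.950), *Clasp1* (0.940), *Taok2* (0.938), *Farp1* (0.923) and *Nrbp2* (0.919), and *Stard4* by *Serac1* (0.912), *Espn* (0.900), *Ank2* (0.884), *Fam13b* (0.877) and *Cdc42bpa* (0.873). Among the members, the closest pair was *Srebf2* and *Scap* (0.872). These libraries share conditions and depth, so the values describe likeness only.

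Other genes of the pathway were taken from 4 lists, whose counts stand beside 8.38% of all genes higher and 3.88% lower in the lens, 4.74% higher and 5.96% lower in NLPCs, and 17.0% higher and 16.3% lower in HLE-B3 cells. Of the 13 genes for SREBP transport and activation (COPII coat and Golgi proteases), 0 of 13 passed in the lens. In NLPCs 0 were higher and 3 lower: *Sar1b* (−0.69 ± 0.11, SE), *Sec23b* (−0.60 ± 0.14) and *Sec23a* (−0.33 ± 0.087), all of the COPII coat that carries SCAP to the Golgi. In HLE-B3 cells 1 of 12 was higher, *SEC24B* (0.44), and 2 lower, *SEC24A* (−0.43) and *SEC24C* (−0.21), 3 alternative cargo adaptors of that coat. The median log2 fold change was −0.15 in the lens (0.0064 over all genes), −0.13 in NLPCs (0.040) and −0.064 in HLE-B3 cells (−0.020).

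Among 14 genes for degradation of INSIG and SREBP, 0 passed in the lens. In NLPCs the ubiquitin ligase genes *Rnf145* (0.50 ± 0.075, SE) and *Fbxw7* (0.58 ± 0.10) were higher, and 1 of the 14 was lower. In HLE-B3 cells 3 were higher and 3 lower, led by *UBE2G2* (−0.38), *ERLIN2* (−0.38) and *UFD1* (0.29), which take part in extraction and destruction of endoplasmic reticulum proteins. The medians were −0.0088, −0.073 and −0.0048 in lens, NLPCs and HLE-B3 cells.

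Of 18 genes for lipoprotein receptors and LDL uptake, 3 of the 17 tested were higher and 0 lower in *Qk*-iCKO lenses: the endocytic adaptor *Dab2* (3 reads in all Ctrl lenses together and 237 in all *Qk*-iCKO lenses, so that it was tested only because of the latter), the receptor *Lrp1* (0.92) and the lysosomal lipase *Lipa* (1.35), genes that macrophages also express, in the lenses where the macrophage markers above were higher; the part of these markers was not tested. In NLPCs the receptor *Vldlr* was higher (0.72 ± 0.090, SE) and the lysosomal cholesterol exporter *Npc1* lower (−1.21 ± 0.11), with 15 of 17 not passing. *NPC1* was also lower in QKI KO HLE-B3 cells (−0.78 ± 0.075), where 4 of 18 were higher, among them *DAB2* (0.57) and *UBE2D3* (0.53), and 3 lower, shares close to the 17.0% and 16.3% of all genes. The medians were 0.25, −0.28 and −0.020.

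Of 19 cholesterol biosynthesis genes, which are SREBP-2 targets as a group, 0 were higher and 3 lower in *Qk*-iCKO lenses: *Lss* (−0.98 ± 0.17, SE), *Hsd17b7* (−1.01 ± 0.19) and *Fdps* (−1.13 ± 0.28). In NLPCs labelled *Qk-/-* 1 was higher and 6 were lower, led by *Hmgcs1* (−0.87 ± 0.079), *Msmo1* (−0.61 ± 0.087) and *Sc5d* (−0.53 ± 0.084). In QKI KO HLE-B3 cells 4 were higher and 7 lower, with *HMGCS1* at −0.70 ± 0.067 and *FDFT1* at −0.74 ± 0.071. The medians were −0.55, −0.35 and −0.14. Thus in NLPCs labelled *Qk-/-* the counts of *Insig1* were higher while 6 of these 19 genes were lower, whereas in *Qk*-iCKO lenses and QKI KO HLE-B3 cells *Insig1* was lower together with 3 and 7 of them.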

How the data were processed

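Per the labels, total RNA was made into stranded libraries. The authors deposited raw read counts per gene, 1 table per system, made with STAR 2.6.1b on mm10 or hg19 and HTSeq 0.11.0; the submitters' processing notes also name HISAT2 2.0.4 and featureCounts without a role. The lens table lists symbols only, so its counter is not settled.

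Each table was fitted on its own with edgeR 4.0.16 in R 4.3.3: genes were kept by filterByExpr (minimum count 10, total 15), scaled by TMM and compared with the quasi-likelihood test without covariates, with Benjamini-Hochberg adjustment over the tested genes of a table. The difference between lens and NLPC was an interaction in a joint fit. Levels are CPM on TMM-scaled library sizes. Same-numbered lens and NLPC libraries deviated together (correlations of 0.13 to 0.52 and 0.12 to 0.32) but not those of HLE-B3 (−0.049 to 0.061). DESeq2 1.42.0 (default settings), other scalings and filters, a replicate block and each library left out in turn were the alternatives. By the study's methods, 3 mice per group gave the lenses. Which NLPC and HLE-B3 libraries came from separate cultures is not in the labels, so p-values there measure the spread between libraries, which may be technical.

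The 8 members and all lists were chosen with earlier results of these data known. Named beside the members are up to 3 genes per list and system with the smallest adjusted p under 0.05, and the 5 genes most like *Insig1*, *Srebf2* and *Stard4*. A list's counts cover all its genes, but a few are not named. The steps were tested on simulated data. Gene coordinates and exon lengths are from GENCODE on GRCm38 and GRCh37.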

Additional observations from a re-analysis of the deposited data

Results flagged for a closer look

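The log2 fold change of *Insig1* was −1.18 in *Qk*-iCKO lenses and 0.43 in NLPCs labelled *Qk-/-*, and the difference of 1.72 was past the threshold of the edgeR interaction test (adjusted p = 0.00288). All 3 *Qk*-iCKO lenses lay below all 3 Ctrl lenses and all 3 NLPC libraries labelled *Qk-/-* above all 3 WT libraries.

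*INSIG1* in HLE-B3 cells (−1.15, lower in all 3 QKI KO libraries) also ran opposite to *Insig1* in NLPCs (0.43, higher in all 3 libraries). The difference between the human and the mouse cells was not tested. *Qk* counts were higher in the NLPC libraries labelled *Qk-/-*; their part in the direction of *Insig1* was not tested.

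The log2 ratio of *Srebf1* to *Srebf2* per kilobase was below the Ctrl range in every *Qk*-iCKO lens (−0.54), and above the control range in every deletion library of NLPCs (0.22) and HLE-B3 cells (0.32). The lens margin was narrow, with 2.24 in Ctrl lens 2 and 2.19 in *Qk*-iCKO lens 2. Within same-numbered pairs the differences were uneven in the lens (−1.24, −0.042 and −0.34) and were 0.28, 0.15 and 0.22 in NLPCs. The differences between these systems were not tested.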

How the results depend on the processing

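The number of members past the threshold was 1 in the lens, 2 in NLPCs and 4 in HLE-B3 cells. With 1 library left out it ranged from 0 to 2, 0 to 4 and 3 to 3, and the number of all genes from 581 to 1709, 681 to 3797 and 4959 to 6036; these fits have fewer libraries. Members that differed between lens and NLPC ranged from 1 to 2. Lens *Stard4* rests on 43 to 71 reads per library.

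With the replicate block, 1982, 2018 and 5901 genes and 1, 2 and 3 members passed in lens, NLPC and HLE-B3; *MBTPS1* was lost (adjusted p = 0.0771) and *Srebf1* joined *Insig1* among the members that differed between lens and NLPC, which came to 2. The block changed no other call on a member. The numbers of members that differed were also 2, *Insig1* and *Srebf1*, with every gene of at least 1 count and with DESeq2. The ratios within same-numbered pairs were computed after seeing the data. Scaling to total counts alone gave 884 genes in the lens, 768 higher and 116 lower where TMM gave 1023 and 473, and moved the median of all genes from 0.0064 to 0.29. With every gene of at least 1 count, 2521 genes passed in the lens, and 1 member in NLPCs, *Insig1* having an adjusted p of 0.0568; *MBTPS1* had 0.0849. DESeq2 called 3736 genes in NLPCs.

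No called member reversed under any alternative. Members near 0 did: with total counts *Stard4* in the lens (0.12), *Scap* in NLPCs (0.0097) and HLE-B3 (−0.054) and the *Srebf2* difference between lens and NLPC (−0.23); *Srebf2* in the lens with every gene (−0.0084), DESeq2 (−0.018) and the block (−0.020); *Scap* with at least 10 counts in every library (0.0036 in NLPCs, −0.0056 in HLE-B3); and *MYLIP* in HLE-B3 less its 50 nearest genes (−0.14). With 1 library left out, the lowest and highest values were −0.23 and 0.15 for *Srebf2*, −0.027 and 0.32 for *Scap* and −0.0061 and 0.22 for *Mbtps1* in the lens, −0.047 and 0.27 for *Srebf2* and −0.18 and 0.15 for *Scap* in NLPCs, −0.035 and 0.073 for *SCAP* in HLE-B3 and −0.28 and 0.096 for the *Scap* difference. The cause of these changes was not tested.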
